A study of Mus musculus with 20 samples.

Results

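Transcripts of oxygen sensing, nitric oxide synthesis and redox handling were followed in the ileal mucosa of mice: Hif1a, Nos2, Aox1 and H47, whose current symbol is Selenos. They were taken by name from a TaqMan OpenArray mouse inflammation panel read by real-time PCR. Each of the 4 genes had 1 assay, out of 648 assays for 584 gene symbols. The 20 samples formed 4 groups of 5. The healthy group received PBS (phosphate-buffered saline) intrarectally and PBS by mouth. The other groups all received intrarectal DNBS, a hapten that produces colitis by this route. They differed in what was given by mouth: PBS in the DNBS group, a treatment labelled CEC in the CEC group, and Nissle, the name of a probiotic Escherichia coli strain, in the Nissle group. Strain, age and sex of the mice, doses and times are not given in the labels. The series text describes pooling of equal RNA amounts from the mice and leaves unstated how mice map onto samples. The p-values here therefore only set group differences against the scatter between these samples, and that scatter may be technical. Nissle 3, 4 and 5 carry an experimental group label that names the healthy controls, against their titles and both treatment labels, and were kept with Nissle.

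Hif1a encodes the oxygen-regulated subunit of hypoxia-inducible factor 1, a transcription factor that is broken down when oxygen is plentiful and that induces glycolytic, angiogenic and barrier-protective genes when it is scarce. The intestinal epithelium lives at low oxygen tension, and hypoxia factor signalling is known there for supporting the barrier. Much of its control is exerted on the protein, which this assay does not see. Nos2 encodes inducible nitric oxide synthase, which makes nitric oxide from arginine after stimulation by cytokines or bacterial products, and Hif1a and NF-kB are among its known activators. Aox1 encodes aldehyde oxidase, a molybdenum enzyme that oxidises aldehydes and nitrogen heterocycles and releases reactive oxygen. H47 encodes selenoprotein S, a membrane protein of the endoplasmic reticulum that takes part in the removal of misfolded proteins and is known for restraining inflammatory cytokine release.

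The promoters are shown because a transcript controlled by hypoxia-inducible factor carries its binding core, ACGTG or GCGTG, near its start in many known cases. RefSeq promoters of build GRCm38.p6 matched 3 of the 4 genes, all but Nos2. The 250 bases before the annotated start are printed 5′ to 3′ on the plus strand, with every ACGTG or GCGTG on either strand in capitals. The Hif1a window lies at chr12:73907617-73907866, that of Aox1 at chr1:58029719-58029968 and that of H47 at chr7:66079399-66079648.
Hif1a: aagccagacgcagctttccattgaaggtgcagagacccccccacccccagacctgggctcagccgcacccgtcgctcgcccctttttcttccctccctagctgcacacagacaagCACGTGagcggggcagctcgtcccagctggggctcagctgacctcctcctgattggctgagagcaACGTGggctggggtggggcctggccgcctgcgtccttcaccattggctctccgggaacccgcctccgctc
Aox1: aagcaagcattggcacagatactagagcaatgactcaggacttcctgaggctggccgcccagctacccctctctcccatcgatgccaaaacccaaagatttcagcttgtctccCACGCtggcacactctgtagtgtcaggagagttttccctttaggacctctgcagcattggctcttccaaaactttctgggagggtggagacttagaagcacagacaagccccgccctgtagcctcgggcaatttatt
H47: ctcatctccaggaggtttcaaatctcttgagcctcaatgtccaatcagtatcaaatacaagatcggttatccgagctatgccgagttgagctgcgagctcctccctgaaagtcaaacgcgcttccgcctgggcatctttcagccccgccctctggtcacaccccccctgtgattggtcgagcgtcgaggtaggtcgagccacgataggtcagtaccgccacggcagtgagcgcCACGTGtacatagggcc
ACGTG was found in the windows of Hif1a and H47, with 3 and 2 matches over both strands. Overlapping matches on opposite strands form CACGTG, which occurs once in each of these windows. The Aox1 window held 0 matches to ACGTG and 1 to GCGTG, read on the minus strand. Among all 32851 windows of the same length, 16.6% held ACGTG, 28.2% held GCGTG and 38.6% held at least 1 of them. These are matches of letters in a short window and show no binding.

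All 4 assays gave a value in all 20 samples, so none of the values below is missing or imputed. Relative levels are the negative of the cycle threshold (Ct, the number of PCR cycles to a fixed fluorescence) after subtracting the mean Ct of the 544 assays that had a value in every sample. They are log2 values if each cycle doubles the product. A level of 0 is the panel mean of the sample, and levels of different assays are not compared here. Between 570 and 594 assays per sample gave a value, and the panel mean lay between 22.6 and 24.3 cycles. Of the markers of small intestinal epithelium, Ccl25, Apoa1 and Reg3g were measured, and their mean level was between 7.07 and 8.86 in every sample, while Apoa4 gave no value. In bulk mucosa, fewer cells of a type and less RNA per cell cannot be told apart.

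Hif1a was highest in the DNBS group, at 2.16-fold its level in the healthy group, and the CEC group stood near the healthy level. In the healthy group, Hif1a was at 2.48 in sample 1b, 1.72 in sample 3, 1.84 in sample 4, 2.28 in sample 5 and 2.07 in sample 6. In the DNBS group it was at 3.16, 3.96, 2.99, 3.63 and 2.19 in samples 1 to 5. Thus 4 DNBS samples lay above every healthy sample, and DNBS 5 lay inside the healthy range. In the CEC group Hif1a was at 2.24, 2.39, 2.40, 1.45 and 2.26 in samples 1, 3, 5, 7 and 8. In the Nissle group it was at 3.67, 1.76, 2.58, 2.13 and 2.76 in samples 1 to 5. The Nissle values reached from the healthy range to near the highest DNBS value, with Nissle 1 alone above 3.

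The group means of Hif1a were 2.08 ± 0.31 in healthy, 3.19 ± 0.67 in DNBS, 2.15 ± 0.40 in CEC and 2.58 ± 0.72 in Nissle samples (SD, n = 5 each). Before normalization, the Hif1a Ct was 21.1 to 21.8 in healthy and 18.8 to 21.6 in DNBS samples. The log2 difference between DNBS and healthy was 1.11 (SE 0.34, 95% interval 0.40 to 1.82), and it did not pass over the panel (limma, adjusted p = 0.122, unadjusted p = 0.00366). It had the rank 15 of 569 tested assays by p. With the sample number as a block it was 1.14 (limma, adjusted p = 0.422), and 2 assays of the panel were called in place of 1. None of the 4 genes was called in this comparison, against 0.176% of the panel, and Hif1a alone of the 4 had an unadjusted p under 0.05, as did 14.6% of the panel. An exact permutation test over samples gave p = 0.0238 (two-sided, 0.286 adjusted over 24 tests of the 4 genes). Without DNBS 5 the difference was 1.36 and passed (limma, adjusted p = 0.0380). With each sample left out in turn, 19 of 20 fits left it uncalled, with limma adjusted p up to 0.315. With limma's sample weights it was 1.22 and passed (adjusted p = 0.00713), but 90 assays of the panel were then called in place of 1.

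By their treatment labels, the CEC and DNBS groups differ in the oral treatment. Hif1a was 2.06-fold lower in the CEC group, a log2 difference of -1.04 (SE 0.34, 95% interval -1.74 to -0.33). The difference did not pass (limma, adjusted p = 0.385, unadjusted p = 0.00592), though it ranked 8 of 569. All 5 CEC samples lay below 4 of the 5 DNBS samples, and DNBS 5 again broke the separation (exact permutation p = 0.0397, adjusted p = 0.286 over the 24 tests). None of the 4 genes was called, as was 0% of the panel, and 10.7% of the panel had an unadjusted p under 0.05. The comparison shares the DNBS samples with the one before. With sample weights the Hif1a difference was -1.04 and passed (limma, adjusted p = 0.0445), but 21 assays of the panel were then called in place of 0. With the sample number as a block in the fit of all groups, the Hif1a difference was -0.88 (limma, adjusted p = 0.381). In a limma fit of these groups alone with the block it was -0.44 (adjusted p = 0.460). That estimate rests on the 3 sample numbers that the CEC and DNBS groups share.

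The CEC and healthy groups differed in Hif1a by 0.07 (95% interval -0.63 to 0.78), so differences within that interval, in either direction, were not excluded. Nissle samples were 0.50 above the healthy samples (SE 0.34, adjusted p = 0.575) and 0.61 below the DNBS samples (log2 difference -0.61, adjusted p = 0.850) by limma. CEC stood 0.43 below Nissle (log2 difference -0.43, adjusted p = 0.998). Without Nissle 1, Nissle minus healthy was 0.23 and CEC minus Nissle -0.16, and without normalization they were 0.94 and -0.83. Ordered by mean, healthy, CEC, Nissle and DNBS followed each other, and each neighbouring pair overlapped.

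**Figure D1:**
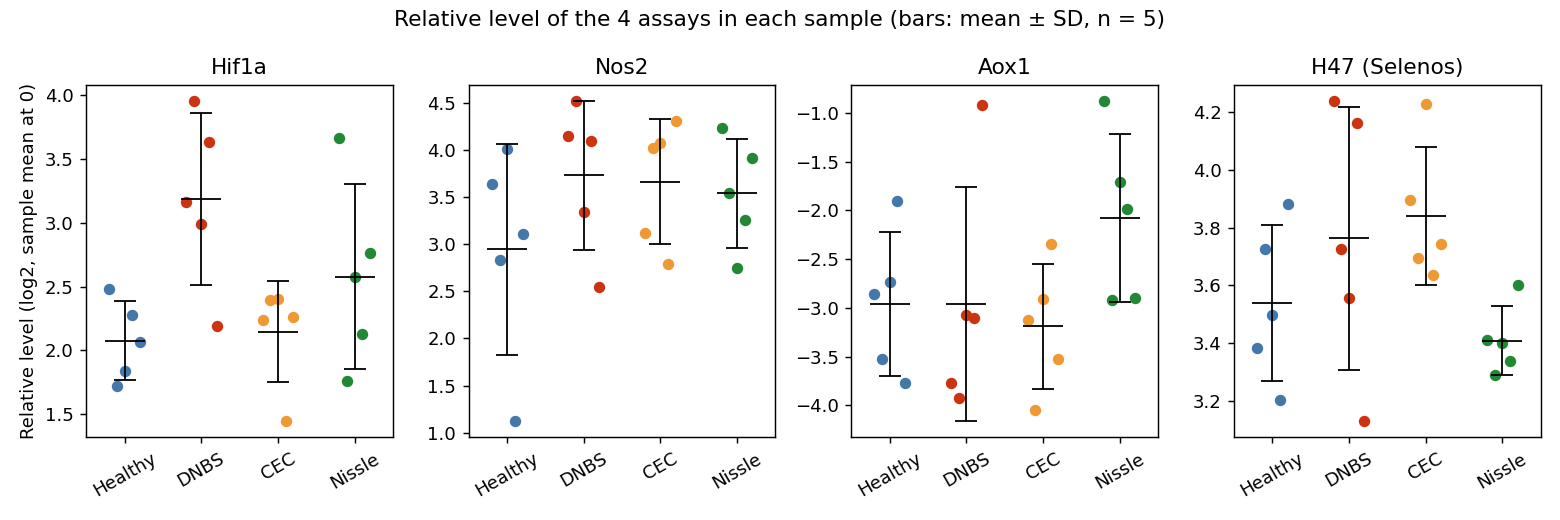
Relative level (log2, panel mean of the sample at 0) of the Hif1a, Nos2, Aox1 and H47 assays in each of the 20 samples, by group, 1 dot per sample, with bars for the mean ± SD (n = 5); the vertical scale differs between panels. Hif1a is at 2.99 to 3.96 in 4 DNBS samples and at 2.19 in DNBS 5, and all 5 CEC samples are above all 5 Nissle samples for H47.

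Neutrophil markers followed the same order of group means as Hif1a at its ends, lowest in healthy and highest in DNBS samples. All 7 measured markers (S100a8, S100a9, Ltf, Camp, Ncf1, Fpr1 and Il8rb) had higher means in the DNBS than in the healthy group and 0 of 7 had higher means in CEC than in DNBS samples, while none passed on its own (limma). Their mean level was -2.50 in healthy samples (range -3.17 to -1.73), -0.71 in DNBS (-2.44 to 0.36), -1.65 in CEC (-3.03 to 0.12) and -1.07 in Nissle samples (-2.47 to 2.29). DNBS 5, low in Hif1a, was the lowest DNBS sample in these markers at -2.44, and Nissle 1, high in Hif1a, was the highest of all samples at 2.29. CEC 1 and CEC 3 stood apart from this, with neutrophil levels of -0.39 and 0.12, in the range of the DNBS samples, and Hif1a at 2.24 and 2.39. From Nissle 2 to Nissle 4, 3 and 5 the markers fell, at -1.42, -1.78, -1.98 and -2.47. Hif1a rose in that order, at 1.76, 2.13, 2.58 and 2.76. For macrophage, monocyte and dendritic markers, 7 of 9 were higher in DNBS than in healthy samples, as were 8 of 9 in CEC and 9 of 9 in Nissle samples. Their mean ranged from -2.03 to -0.93 in healthy and from -1.36 to 0.38 in DNBS samples. Unlike Hif1a, their mean was not lower in CEC (-0.34) or Nissle (-0.28) than in DNBS samples (-0.40). In CEC against DNBS samples 4 of 9 were higher, with a median of -0.27. By median, the epithelial markers went the other way from the neutrophil markers. Of 3, 1 had a higher mean in DNBS than in healthy samples, with a median log2 difference of -0.65. In CEC against DNBS samples 2 of 3 were higher, with a median of 1.12. The 1 endothelial marker that could be tested, the P-selectin gene Selp, was 1.59 higher in DNBS than in healthy samples, with levels of -4.14 to -3.77 in healthy and -3.43 to -1.71 in DNBS samples, and differed by -0.52 between CEC and DNBS samples. The T cell markers Cd4 and Cd28 differed by a median of -0.58 between DNBS and healthy samples and 0.43 between CEC and DNBS samples. The B cell marker Cr2 differed by -0.62 and -0.54 in these comparisons. None of these markers passed (limma), and each marker named had a value in some sample, apart from Apoa4. The part of these cells in the Hif1a values was not tested.

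**Figure D2:**
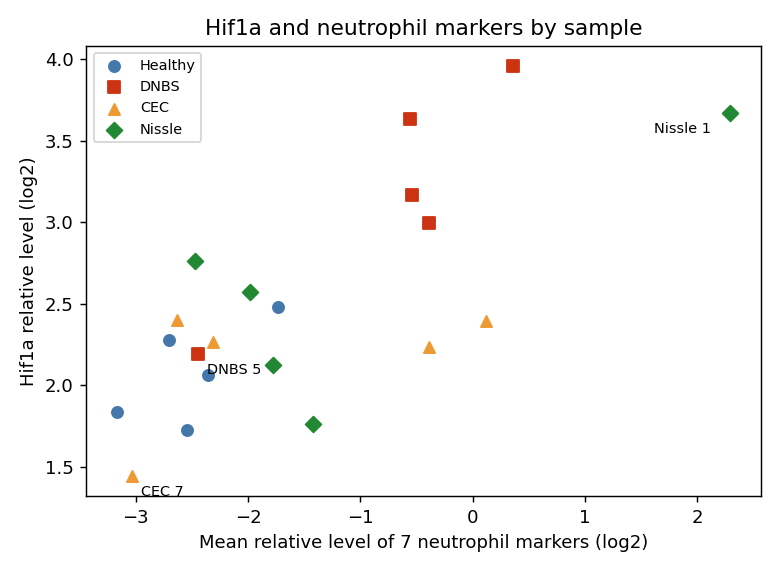
Hif1a relative level (log2, vertical) against the mean relative level of 7 neutrophil markers (log2, horizontal), 1 point per sample, coloured by group. DNBS 5 lies among the healthy samples on both axes, Nissle 1 is farthest right at 2.29, and 2 CEC samples have marker levels like the DNBS samples with Hif1a at 2.24 and 2.39. Among Nissle 2, 3, 4 and 5, Hif1a is higher where the markers are lower.

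Nos2 had higher means in all 3 DNBS-treated groups than in the healthy group, with differences inside the spread between samples. Healthy samples 1b, 3, 4, 5 and 6 had Nos2 at 3.65, 2.84, 4.02, 1.12 and 3.11. DNBS samples 1 to 5 had 4.15, 4.52, 3.34, 4.10 and 2.54. CEC samples 1, 3, 5, 7 and 8 had 3.12, 4.02, 4.08, 2.79 and 4.31. Nissle samples 1 to 5 had 4.23, 3.55, 2.75, 3.26 and 3.92, so that each group of DNBS-treated mice overlapped the healthy group, and healthy 5 stood lowest of all samples. The means were 2.95 ± 1.12 in healthy, 3.73 ± 0.79 in DNBS, 3.66 ± 0.66 in CEC and 3.54 ± 0.58 in Nissle samples (SD, n = 5 each).

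Against the healthy group, the log2 differences of Nos2 were 0.78 for DNBS (95% interval -0.20 to 1.77, adjusted p = 0.475), 0.72 for CEC (-0.27 to 1.70, adjusted p = 0.803) and 0.59 for Nissle (-0.39 to 1.58, adjusted p = 0.604) by limma. These 3 differences use the same healthy samples. Without healthy 5 they were 0.33, 0.26 and 0.14. With sample weights they were 0.46 for DNBS, 0.57 for CEC and 0.011 for Nissle. For CEC against healthy samples the difference was 1.20 with the sample number as a block (limma, adjusted p = 0.811), and 2.07 with the block and these groups alone (adjusted p = 0.104), where 2 numbers are shared. Among DNBS-treated groups the means lay closer together: CEC minus DNBS was -0.07, Nissle minus DNBS -0.19 and CEC minus Nissle 0.12, each with an SE of 0.47. The 95% intervals of these differences reached from -1.17 to 1.11, wider than the differences themselves.

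Aox1 had its highest mean in the Nissle group and its lowest in the CEC group, with wide spread in each group. Healthy samples 1b, 3, 4, 5 and 6 had Aox1 at -2.85, -3.53, -2.74, -1.91 and -3.77. DNBS samples 1 to 5 had -3.77, -3.93, -3.07, -3.11 and -0.92, and CEC samples 1, 3, 5, 7 and 8 had -3.13, -4.05, -2.91, -2.34 and -3.52. Nissle samples 1 to 5 had -0.88, -2.92, -1.71, -1.99 and -2.90. DNBS 5 and Nissle 1 were the only samples above -1, and the other 4 DNBS samples lay below the lowest Nissle sample. The means were -2.96 ± 0.73 in healthy, -2.96 ± 1.20 in DNBS, -3.19 ± 0.64 in CEC and -2.08 ± 0.86 in Nissle samples (SD, n = 5 each).

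CEC minus Nissle was -1.11 for Aox1 (SE 0.55, 95% interval -2.25 to 0.03), a level 2.16-fold lower in CEC that did not pass (limma, adjusted p = 0.998; exact permutation p = 0.0476, 0.286 adjusted over the 24 tests). None of the 4 genes was called here, as was 0% of the panel, and 1.41% of the panel had an unadjusted p under 0.05. Nissle was above the healthy group by 0.88 (SE 0.55, adjusted p = 0.534) and above the DNBS group by 0.88 (adjusted p = 0.853) by limma. Without Nissle 1 both were 0.58, and without DNBS 5 the second was 1.39. None of the 4 genes was called in either comparison, against 0.176% and 0% of the panel, and unadjusted p-values under 0.05 were found for 9.49% and 4.22%. The DNBS and healthy means differed by 0.0010 (95% interval -1.14 to 1.14), and by -0.51 without DNBS 5. CEC minus healthy was -0.23 for Aox1, CEC minus DNBS -0.23.

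H47 varied least of the 4, with a range of 1.11 over all samples, and was lowest in the Nissle group. Healthy samples 1b, 3, 4, 5 and 6 had H47 at 3.38, 3.73, 3.50, 3.20 and 3.88, and DNBS samples 1 to 5 had 4.24, 3.72, 3.56, 4.16 and 3.13. CEC samples 1, 3, 5, 7 and 8 had 3.89, 3.69, 4.23, 3.64 and 3.74. Nissle samples 1 to 5 had 3.41, 3.29, 3.40, 3.34 and 3.60, all below the lowest CEC sample. The means were 3.54 ± 0.27 in healthy, 3.76 ± 0.46 in DNBS, 3.84 ± 0.24 in CEC and 3.41 ± 0.12 in Nissle samples (SD, n = 5 each).

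H47 was 1.35-fold higher in CEC than in Nissle samples, a log2 difference of 0.43 (SE 0.21, 95% interval -0.01 to 0.87). It did not pass (limma, adjusted p = 0.998), although the groups did not overlap and the exact permutation p of 0.00794 is the smallest that 5 against 5 samples can give (0.190 adjusted over the 24 tests). Groups without overlap were seen in 0.351% of the panel in this comparison, namely for H47 and for the assay Hprt1_Mm01318743_m1, which differed by 0.47. Hprt1 is a reference gene of purine salvage, and its other assays with a value in every sample overlapped between these groups. With 20 reference assays in place of the panel mean the H47 difference was 0.25, and without normalization it was 0.034. In the other comparisons H47 differed by 0.22 (DNBS minus healthy), 0.30 (CEC minus healthy), -0.13 (Nissle minus healthy), 0.08 (CEC minus DNBS) and -0.35 (Nissle minus DNBS), each with an SE of 0.21 and none called (limma, adjusted p from 0.675 to 0.901). In the comparison of CEC with healthy samples none of the 4 genes was called, against 0.176% of the panel, with 3.87% of the panel at an unadjusted p under 0.05.

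**Figure D3:**
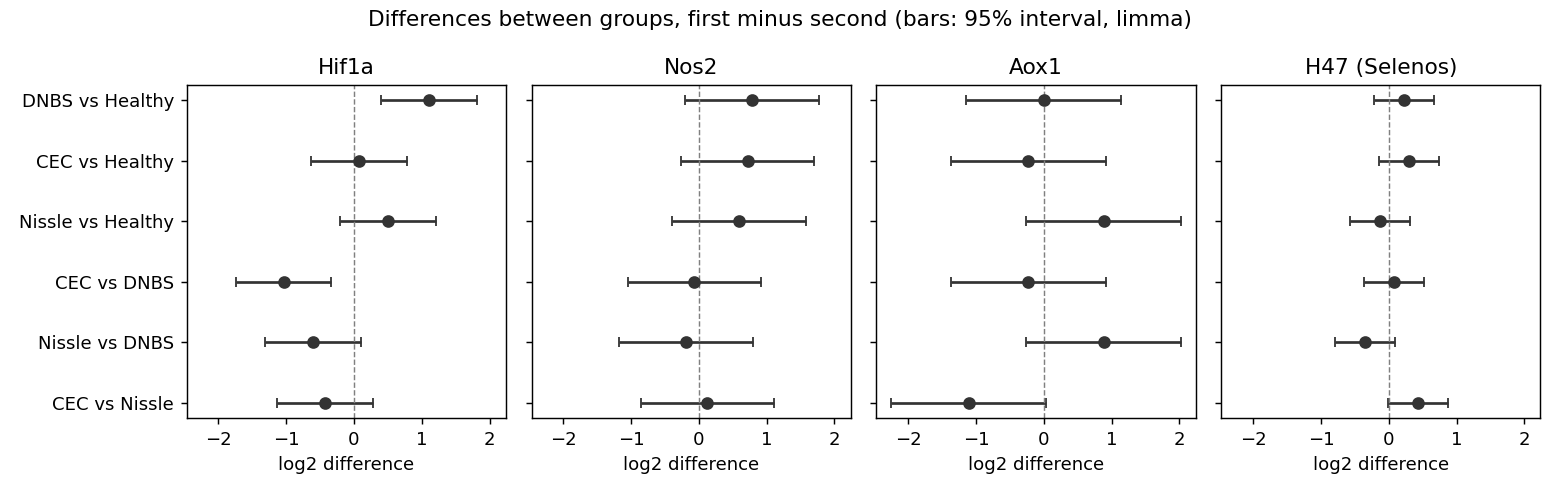
Log2 differences between groups, first minus second, for the 4 assays in all 6 comparisons, with 95% intervals from the limma fit over 569 assays. The intervals of Hif1a lie off 0 for DNBS against healthy (0.40 to 1.82) and for CEC against DNBS (-1.74 to -0.33) before adjustment over the panel; all other intervals include 0.

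Across the 20 samples Aox1 and H47 ran in opposite directions. Pearson's r was -0.64 (permutation p = 0.00211, 0.0127 adjusted over 6 pairs) and Spearman's rho -0.71 (permutation p = 0.00069, adjusted 0.00414). Leaving out DNBS 5 and Nissle 1, the samples farthest from the median Aox1 level, gave r = -0.57. Taken as deviations from group means, r was -0.57 (permutation p within groups, adjusted, 0.0542). The relation depended on the scale: r was -0.40 with reference assays (adjusted permutation p = 0.238) and 0.057 without normalization.

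Nos2 and Hif1a were correlated by rank (rho = 0.57, permutation p = 0.00897, adjusted 0.0269), and r was 0.49 (adjusted permutation p = 0.0556). Without DNBS 2 and Nissle 1, the samples farthest from the median of Hif1a, r fell to 0.34, so the relation rests in part on them. Within groups it was 0.48, and with reference assays 0.43 (adjusted permutation p = 0.238). Nos2 and H47 had r = 0.50 (adjusted permutation p = 0.0556; rho = 0.48), which was 0.28 without DNBS 5 and healthy 5 and 0.27 with reference assays (adjusted permutation p = 0.350). Nos2 and Aox1 had r = -0.43 (adjusted permutation p = 0.0861; rho = -0.42; -0.22 without the same samples). Hif1a showed little relation to Aox1 (r = -0.05, rho = -0.08, adjusted permutation p = 0.837; r = -0.18 without DNBS 2 and Nissle 1) or to H47 (r = 0.28, rho = 0.21, adjusted permutation p = 0.275; r = 0.43 without them).

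**Figure D4:**
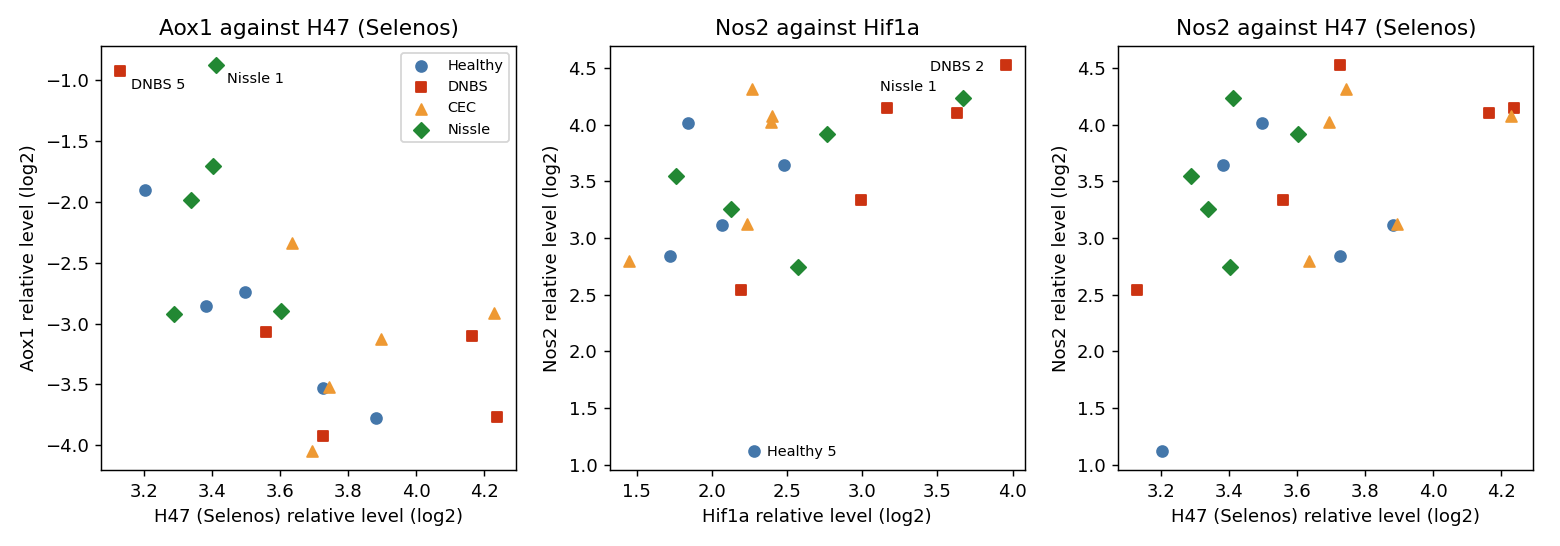
Relative levels (log2) of Aox1 against H47, Nos2 against Hif1a and Nos2 against H47, 1 point per sample, coloured and shaped by group. Aox1 is lower where H47 is higher (r = -0.64), and DNBS 5 and Nissle 1 stand at the top of that panel; Nos2 is higher where Hif1a is higher (rho = 0.57), with healthy 5 far below the others.

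Each gene was also set beside the 543 other assays with a value in all 20 samples, and assays among the 3 of highest r are given as a description. For Hif1a these were Tnfsf9, the ligand of the T cell costimulator 4-1BB (r = 0.83, rho = 0.81), Il33, an alarmin cytokine (r = 0.81, rho = 0.80), and Socs1, a suppressor of cytokine signalling (r = 0.80, rho = 0.68). Without DNBS 2 and Nissle 1 these r values were 0.80, 0.75 and 0.71. For Nos2 they were Itgal, the leukocyte integrin alpha L (r = 0.83, rho = 0.73), Chst4, a sulfotransferase that acts on selectin ligands (r = 0.82, rho = 0.81), and Myd88, the adaptor of Toll-like and interleukin-1 receptors (r = 0.82, rho = 0.75), or 0.62, 0.72 and 0.68 without DNBS 5 and healthy 5. For Aox1 they were the TNF receptor gene Tnfrsf1b (r = 0.75, rho = 0.49), Tnfsf11, which encodes RANKL (r = 0.70, rho = 0.61), and Foxp3, the factor of regulatory T cells (r = 0.65, rho = 0.51), or 0.51, 0.65 and 0.43 without DNBS 5 and Nissle 1. For H47 they included the reference genes Gapdh (r = 0.76, rho = 0.84) and Gusb (r = 0.70, rho = 0.68), or 0.75 and 0.75 without CEC 5 and DNBS 1. The points share samples and a common panel mean.

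Partners and targets of the hypoxia pathway did not pass in any comparison. Of 34 listed genes 15 were on the panel and 13 could be tested, and 0 of 13 were called in each of the 6 comparisons (limma). In DNBS against healthy samples 9 of 13 were higher, with a median log2 difference of 0.11, where 44.6% of all tested assays were higher with a median of -0.07. Pgk1, a glycolytic kinase gene and known target of hypoxia-inducible factor, differed by 0.69 (SE 0.30, adjusted p = 0.269), and Hmox1, the heme oxygenase gene, by 0.999 (SE 0.52, adjusted p = 0.400). In CEC against healthy samples, where Hif1a differed by 0.07, 9 of 13 were higher with a median of 0.09. All assays had 43.9% higher and a median of -0.08 there. Nissle against healthy samples had 7 of 13 higher with a median of 0.11, against 42.2% and -0.10 for all assays. In CEC against DNBS samples 4 of 13 were higher with a median of -0.12, against 48.0% and -0.02 for all assays. Pgk1 differed there by -0.55 (adjusted p = 0.480), and the transferrin receptor gene Tfrc by 0.46 (adjusted p = 0.567). The vascular growth factor gene Vegfa differed from healthy by -0.34 in CEC and -0.44 in Nissle samples, and Itgb2, an integrin gene, by 0.48 in CEC samples. Camp, a neutrophil peptide gene on this list as a known target, was higher in Nissle samples by 1.60 against healthy and 1.46 against DNBS samples, without passing. Pgk1 differed by -0.58 between Nissle and DNBS samples, and between CEC and Nissle samples Gapdh differed by 0.47 and Camp by -1.51.

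The genes around nitric oxide on the panel were the cytokines, receptors and signalling genes that induce Nos2, since none of the other synthases or arginine enzymes of the list was on it. Of 17 on the panel 16 were tested, Tnf having no value, and 0 of 16 were called in each comparison (limma). In DNBS against healthy samples 9 of 16 were higher with a median of 0.10, against 44.6% and -0.07 for all assays. Lbp, which carries endotoxin to its receptor, differed by 1.19 (SE 0.40, adjusted p = 0.158), and Cebpb, a transcription factor of the acute phase, by 1.28 (SE 0.56, adjusted p = 0.298). In CEC against DNBS samples 6 of 16 were higher with a median of -0.09, against 48.0% and -0.02 for all assays. Il1b (Il1b_Mm99999061_mH) and the endotoxin receptor gene Tlr4 differed by -1.98 (adjusted p = 0.416) and -0.78 (adjusted p = 0.455). Cebpb differed by 0.99 and the NF-kB subunit gene Rela by -0.36 between CEC and healthy samples. The interferon gamma receptor gene Ifngr2 differed by -0.66 and the kinase gene Jak1 by -0.36 between Nissle and healthy samples. Ifngr1 differed by 0.69 and Tlr4 by -0.50 between Nissle and DNBS samples, and between CEC and Nissle samples Il1b differed by -1.37 and Jak1 by 0.28.

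Of the redox and endoplasmic reticulum stress list, 11 of 55 genes were on the panel and tested, and 0 of 11 were called in each comparison (limma). They were 6 of 11 higher in DNBS than in healthy samples with a median of 0.05, against 44.6% and -0.07 for all assays. In CEC against DNBS samples 5 of 11 were higher with a median of -0.13, against 48.0% and -0.02 for all assays. Hmox1 is also on this list, and the inducible prostaglandin synthase gene Ptgs2 differed by 1.08 between DNBS and healthy samples (adjusted p = 0.408) and by -0.91 between CEC and DNBS samples (adjusted p = 0.573). The peroxiredoxin gene Prdx5 differed by 0.45 in the latter comparison. Sod1, the cytosolic superoxide dismutase gene, differed in Nissle samples by -0.41 against healthy and -0.46 against DNBS samples. The lipoxygenase gene Alox5 differed by 0.69 between CEC and healthy and by 0.88 between CEC and Nissle samples, where Alox15 differed by -0.71. Ptgs1 differed from healthy by 0.86 in CEC and 0.75 in Nissle samples, and by 0.60 between Nissle and DNBS samples.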

How the data were processed

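The authors deposited 1 table of unnormalized Ct values, with 20 columns named as the samples are titled. Total RNA came from a mirVana isolation and was run as cDNA on TaqMan OpenArray cards, according to the protocols in the labels. Threshold and baseline settings and the number of wells behind a value are not given in the sources used here. A Ct of 40 stood for no amplification (1273 of 12960 cells, 9.82%) and was left missing, as was 1 empty cell. The relative level, its reference set and the members are described above. Symbols were matched to RefSeq through its table for GRCm38.p6.

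Group means were fitted with limma 3.58.1 in R 4.3.3 to all 20 samples over the 569 assays with at least 3 values in each group, with empirical Bayes moderation with a trend, two-sided p-values and a threshold of 0.05 after Benjamini-Hochberg adjustment, made separately per comparison. The median SE was 0.42. Permutation tests were written in Python 3.11.15, with all 252 splits for single assays and 100000 resamples for correlations. Their p-values were adjusted with SciPy 1.17.1. With changes added to 200 of 569 simulated assays between the DNBS and healthy groups, this fit recovered 56% of changes of 1 on the log2 scale and 90% of changes of 2. The simulated assays varied independently, and far more of them changed than the 1 called in the data. The adjustment is laxer when more assays change, so these shares may overstate the recovery of a change in Hif1a. The named genes are the 4 members, the 2 list genes with the smallest p in each comparison and the 3 assays of highest r, of which 1 for H47 is not reported here. For deviations from group means, resampling was done within groups, a scheme set after a first version with unrestricted resampling had been seen. Alternatives covered normalization, filters, missing values, sample weights, blocks and leaving out samples. The block fitted to both groups alone and the correlations with 1 sample left out were chosen after seeing the data. Members, lists and other alternatives were chosen with earlier results of these data known, and the lists are described by counts.

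Titles number the samples. In the DNBS and healthy groups, the deviations of 3 shared numbers had correlations of 0.14 to 0.49. For 2 of the 3 the correlation was highest with the sample of the same number. The labels state no pairing, and whether these samples are paired was not tested. With the number as a block, 2 assays were called there in place of 1, neither of them a member, and Hif1a was not called (1.14, limma, adjusted p = 0.422).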

Additional observations from a re-analysis of the deposited data

Results flagged for a closer look

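Of 16 sets of 5 samples (4 genes in 4 groups), 2 held a sample far from the others, where chance gives about 1 in 20. For Hif1a in the CEC group, CEC 7 stood at 1.45, with the nearest CEC sample at 2.24. CEC 7 also had the latest panel mean of all samples, 24.3 cycles. For Aox1 in the DNBS group, DNBS 5 stood at -0.92, with the nearest DNBS sample at -3.07. DNBS 5 was also the lowest DNBS sample for Hif1a, Nos2 and H47.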

How the results depend on the processing

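Of 840 values of the 4 genes recomputed under other settings, 803 kept their direction and their side of the threshold, 34 turned sign, none of them called, and 3 were newly called. The newly called values were Hif1a between DNBS and healthy samples with sample weights (1.22) and without DNBS 5 (1.36), and Hif1a between CEC and DNBS samples with sample weights (-1.04). The cause of these changes was not tested. Limits are the 5 samples a group, the unknown pooling and the assumed doubling per cycle.

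With sample weights, Nos2 was 0.11 between CEC and DNBS, 0.46 between DNBS and healthy and 0.011 between Nissle and healthy, and 90 assays were called between DNBS and healthy and 21 between CEC and DNBS. With both groups alone, 9 assays were called between DNBS and healthy and 0 in each of CEC and Nissle against healthy. With the median in place of the mean, Aox1 between DNBS and healthy was -0.089, Nos2 between CEC and DNBS 0.079, the correlation of Aox1 and H47 -0.53, and 0 assays were called between CEC and healthy. Without normalization, H47 was -0.11 between CEC and DNBS and 0.31 between Nissle and healthy, and Nos2 was -0.27 between CEC and Nissle and 0.017 between Nissle and DNBS. No assay (0) was then called in any comparison with healthy, and the correlations were 0.057 for Aox1 and H47, 0.32 for Hif1a and Aox1, 0.77 for Hif1a and H47, 0.77 for Hif1a and Nos2, 0.093 for Nos2 and Aox1 and 0.85 for Nos2 and H47. With quantile normalization, H47 between Nissle and healthy was 0.044, the correlations of Nos2 with Hif1a and H47 were 0.58 and 0.67, and 0 assays were called between CEC and healthy, as also with no trend. With reference assays, Aox1 between DNBS and healthy was -0.065, Hif1a between CEC and healthy -0.039 and Nos2 between CEC and Nissle -0.053, and the correlations of Aox1 with H47 and Hif1a were -0.40 and 0.15 and those of Nos2 with H47 and Hif1a 0.27 and 0.43. With undetermined values at 40 cycles, 2 assays were called between CEC and healthy and 3 between Nissle and healthy. Without assays of suffix _s1 or _g1, Aox1 between DNBS and healthy was -0.068. Without Nissle 3, 4 and 5, Nos2 was -0.22 between CEC and Nissle and 0.15 between Nissle and DNBS, the correlation of Aox1 and H47 was -0.61, and 0 assays were called in CEC or Nissle against healthy. As deviations from group means, Aox1 and H47 had r = -0.57.

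With the replicate block, Aox1 between DNBS and healthy was -0.035 and Nos2 was 0.28 between CEC and DNBS and 1.20 between CEC and healthy, and 2 assays were called between DNBS and healthy and 0 in each of CEC and Nissle against healthy. With the block and both groups alone, Nos2 was 0.40 between CEC and DNBS and 2.07 between CEC and healthy, and the counts were again 2, 0 and 0. The block changed no call of the 4 genes. In the other comparisons the deviations of shared numbers had correlations of -0.40 to 0.44. The share highest with its own number went from 0 of 3 (Nissle and healthy) to 2 of 2 (CEC and healthy).

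Leaving out each sample in turn gave, for Aox1, -0.47 to 0.28 (CEC minus DNBS), -0.44 to 0.035 (CEC minus healthy) and -0.51 to 0.26 (DNBS minus healthy). H47 between CEC and DNBS ranged from -0.082 to 0.20. Hif1a ranged from -0.018 to 0.25 (CEC minus healthy), 0.92 to 1.36 (DNBS minus healthy), 0.23 to 0.71 (Nissle minus healthy), -0.88 to -0.40 (Nissle minus DNBS) and -0.63 to -0.16 (CEC minus Nissle). Nos2 ranged from -0.36 to 0.15 (CEC minus DNBS), -0.075 to 0.34 (CEC minus Nissle) and -0.49 to 0.0073 (Nissle minus DNBS). Counts of assays called were 1 to 7 for DNBS, 0 to 1 for CEC and 0 to 1 for Nissle against healthy. Correlations ranged from -0.70 to -0.57 for Aox1 and H47, -0.31 to 0.12 for Hif1a and Aox1, 0.41 to 0.60 for Hif1a and Nos2, -0.63 to -0.36 for Nos2 and Aox1 and 0.40 to 0.55 for Nos2 and H47.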
